A study of Mus musculus with 8 samples.

Results

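The genes described here encode the myosin motors, their light chains, the actinins, the tropomyosins and the actin-binding protein nexilin, measured in the striatum of newborn mice with and without the transcription factor Ctip2. Members were chosen by gene symbol: every probe set with 1 symbol in the array's annotation that names a myosin heavy chain (Myh), light chain (Myl), unconventional myosin (Myo), actinin (Actn) or tropomyosin (Tpm) gene, or Nexn. This gave 108 of 45037 probe sets and 57 of 18193 genes, 30 of them with a single probe set and the rest with up to 5. Nexn entered the list by its own name, and its fall, like that of Myo5b, was known from earlier work on these data. The symbol rule also took in Myhas, an antisense transcript of the skeletal muscle myosin cluster, which encodes no myosin.

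Each of 8 Affymetrix arrays held RNA from a different BALB/c mouse at postnatal day 0. There were 3 wild type animals, 1 Ctip2 heterozygote and 4 Ctip2 null mutants. Tissue was a punch from the centre of the striatum, so each array reads all cells of the punch together, and fewer cells of a type cannot be told apart from less RNA per cell. The labels name no Cre line or driver, and the extent of the Bcl11b deletion is not stated in them.

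Myosins are motors that move along actin filaments. Conventional myosins pair 2 heavy chains with light chains and pull filaments together, in muscle as sarcomeres and in neurons at growth cones and in the cell cortex. Unconventional myosins carry membranes and other cargo, and in neurons some of them bring receptors and organelles into dendritic spines. Actinins crosslink actin filaments at muscle Z-discs and at postsynaptic densities, tropomyosins run along the filament and set which proteins may bind it, and nexilin is an actin-binding protein of Z-discs and cell-matrix adhesions.

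The values are log2 expression levels as deposited. Array medians lay between 6.21 and 6.35. The SD of log2 values within an array ran from 1.84 to 1.97 in wild type, was 2.06 in the heterozygote and ran from 1.90 to 2.05 in null arrays. Bcl11b, the gene of Ctip2, was lower on its 4 probe sets in null striatum, by 2.16-fold to 3.16-fold (limma adjusted p from 0.0011 to 0.0152). Without wild type 3, or without wild type 1 and null 2 together, 1 of these 4 passed. The medium spiny neuron marker Pde10a, a striatal phosphodiesterase, read 10.15 ± 0.10 (SD, n = 3) in wild type, so the labelled tissue carried a defining marker of striatum.

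Among the members 3 genes fell in null striatum, each on 1 probe set, and none rose. Nexn fell 9.20-fold, Myo5b, a motor of recycling endosomes, 4.05-fold and Actn2, the actinin of muscle Z-discs and postsynaptic densities, 1.86-fold. The other 105 probe sets did not pass a limma adjusted p of 0.05. The 3 falls are 2.78% of the members, where 2.32% of all probe sets were called in either direction, 1.87% as higher and 0.453% as lower. With Nexn left out, 2 of 107 members were lower, or 1.87%. At an unadjusted limma p of 0.05, 20 members passed, 7 higher and 13 lower, which is 18.5% against 19.6% of all probe sets. The median difference over the members was -0.14 on the log2 scale, beside -0.08 over all probe sets.

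**Figure D1:**
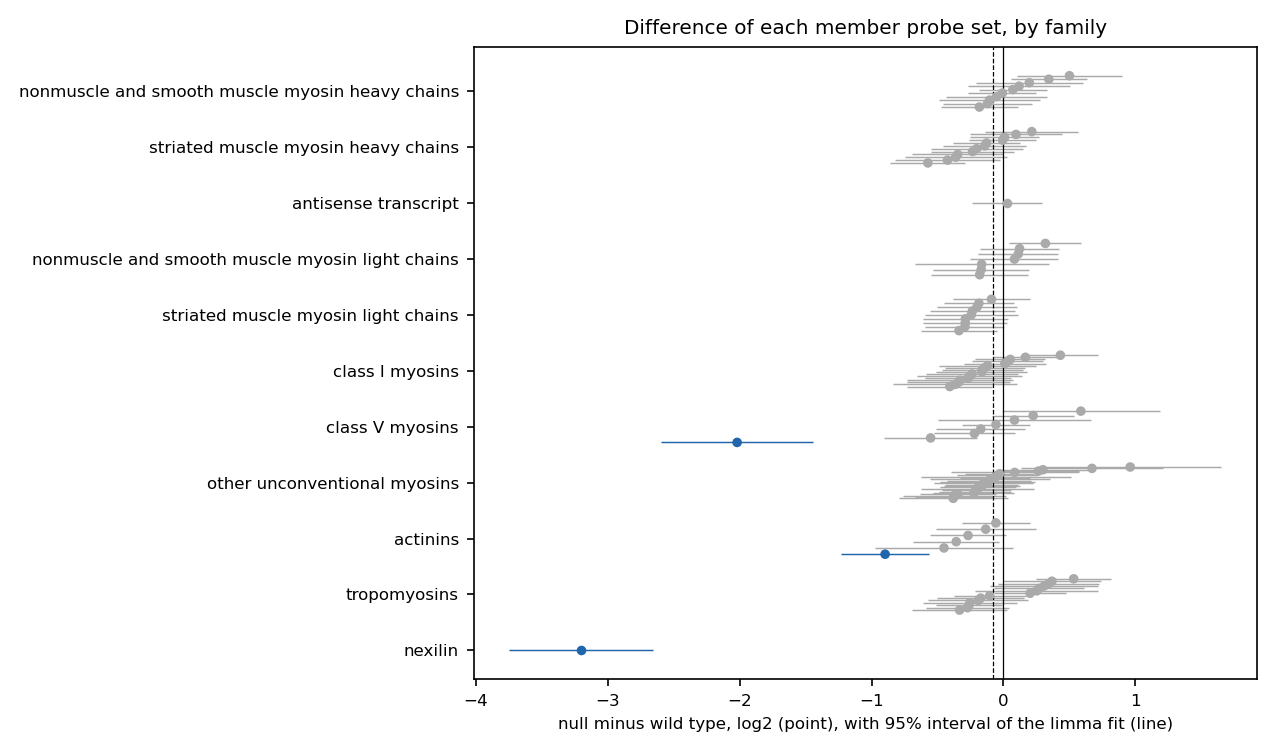
Difference between null and wild type arrays on the log2 scale (horizontal axis) for each of the 108 member probe sets, grouped by family (vertical axis), as points with the 95% interval of the limma fit as lines. The 3 probe sets past an adjusted p of 0.05, of Nexn, Myo5b and Actn2, are blue and lie to the left of the others, the dashed line marks the median over all probe sets at -0.08, and most intervals of the grey probe sets include 0.

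Nexn gave the largest difference of the family. The 3 wild type arrays of its probe set, 1435649_at, gave 10.12, 9.30 and 10.16, and the heterozygote gave 9.92. The 4 null arrays gave 6.54, 6.27, 7.08 and 6.75. Every null array thus lay more than 2 log2 units below the lowest wild type array, and the heterozygote lay within the wild type range. The group means were 9.86 ± 0.48 (SD, n = 3) and 6.66 ± 0.34 (SD, n = 4), with a 95% interval of the fold from 6.30 to 13.4 (limma adjusted p = 6.76e-04). Ranked by their brightest probe sets from the most negative difference, Nexn stood at place 2 of 18193 genes. With the heterozygote counted among the controls the difference was -3.22, and with array SD as a covariate it was -3.37, so neither setting reduced it.

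Myo5b, which moves Rab11-positive recycling endosomes along actin and in neurons delivers glutamate receptors to spines, fell on its brightest probe set, 1452298_a_at. Wild type arrays gave 8.45, 7.45 and 7.73, the heterozygote 8.10, and null arrays 5.54, 6.29, 6.01 and 5.58. The groups did not overlap, and the heterozygote again lay within the wild type range. Means were 7.87 ± 0.52 (SD, n = 3) and 5.85 ± 0.36 (SD, n = 4), with a 95% interval of the fold from 2.72 to 6.04 (limma adjusted p = 0.00563), which placed Myo5b at 6 among the 18193 genes ranked by fall. The null mean lay below 6.30, the median level of all probe sets, and no detection limit was set. A second probe set of the gene, 1437698_at, read 6.57, 6.07 and 6.37 in wild type and 5.83, 5.60, 5.69 and 6.03 in null arrays. Its groups did not overlap either, although the difference of -0.55 did not pass (limma adjusted p = 0.110). The third, 1441104_at, lay between 5.42 and 5.66 on all 8 arrays and differed by -0.06 (limma adjusted p = 0.779).

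Actn2 was measured by a single probe set, 1448327_at. Wild type arrays gave 7.30, 6.94 and 6.98, the heterozygote 7.52, and null arrays 6.08, 6.13, 6.04 and 6.45. All null arrays lay below all wild type arrays, and the heterozygote was the highest of the 8. Means were 7.07 ± 0.20 (SD, n = 3) and 6.18 ± 0.19 (SD, n = 4), with a 95% interval of the fold from 1.48 to 2.34 (limma adjusted p = 0.0171). As for Myo5b, the null mean lay below 6.30, the median level of all probe sets. The call was lost without wild type 3 (0.0645), null 1 (0.0609) or null 2 (0.0616), without wild type 1 and null 2 together (0.0953) and with array SD as a covariate (0.0968), while the difference in these settings stayed between -0.77 and -0.94.

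**Figure D2:**
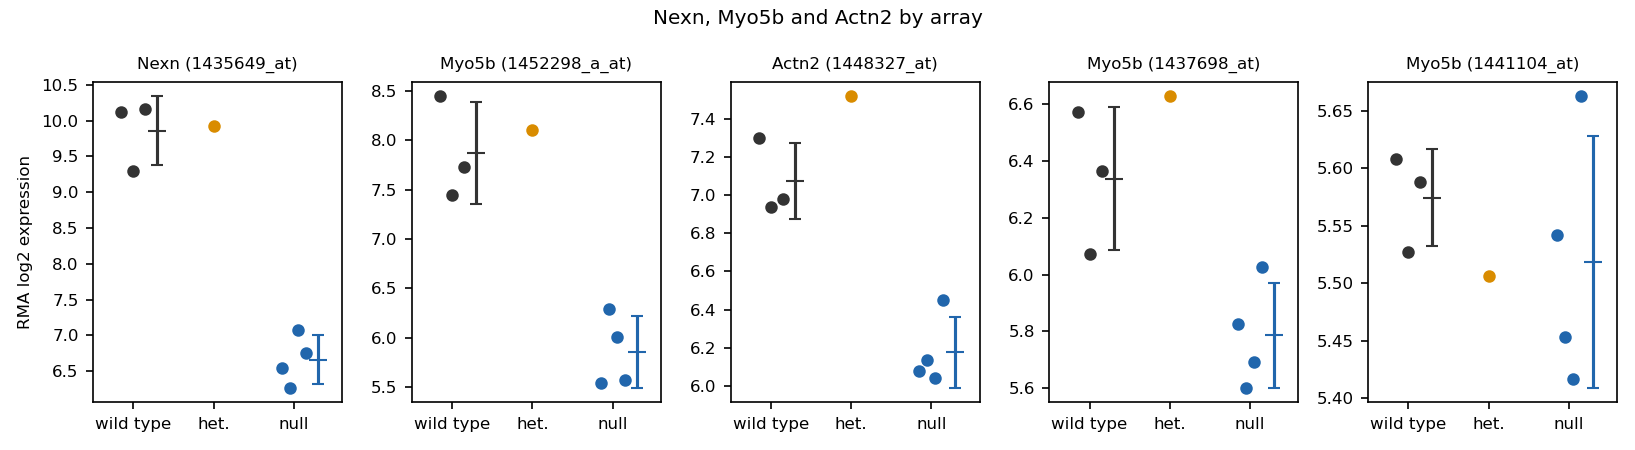
RMA log2 expression (vertical axis, scaled separately in each panel) of Nexn, Actn2 and the 3 probe sets of Myo5b in each wild type, heterozygote (het.) and null array, as points, with the group mean and SD beside them. On the first 4 panels no null array reaches the lowest wild type array, and on the last, Myo5b 1441104_at, the groups overlap between 5.42 and 5.66.

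Nexn had no entry among the promoter sequences at hand, and that of Myo5b is not printed. The promoter of Actn2 is therefore shown, as the remaining one of the 3 genes that fell. It is the 250 bases before the RefSeq start (build GRCm38.p6, chr13:12340733-12340982, minus strand), 5′ to 3′, with each CACGTG, the palindromic E-box of basic helix-loop-helix factors, in capitals.
Actn2: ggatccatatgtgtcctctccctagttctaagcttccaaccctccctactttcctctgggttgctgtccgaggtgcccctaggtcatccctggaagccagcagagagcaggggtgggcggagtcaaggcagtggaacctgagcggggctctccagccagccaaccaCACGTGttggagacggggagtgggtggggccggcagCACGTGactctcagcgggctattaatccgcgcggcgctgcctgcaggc
The hexamer occurs 2 times in this window, starting at -84 and -48 from the first transcribed base. Windows of the same length upstream of all 32851 starts in the RefSeq table held it in 6.02% of cases, and those of 62 starts of 50 member genes in 4.84%, in Actn2, Myh7b and Myl12a. The CArG box, the element bound by serum response factor at many muscle and cytoskeletal genes, was searched on both strands in the same windows and was present at 1.47% of all starts and 9.68% of the members' starts, in Myh4, Myl3, Myl6, Myl7, Myl9 and Myo1e. None of these 6 genes had a probe set that passed, and a match of letters is a description, not a site of binding.

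No probe set of the other class V myosins passed. Myo5a, the dilute motor that carries endoplasmic reticulum into spines, had a mean of 8.73 ± 0.63 (SD, n = 3) in wild type on its brightest probe set and of 8.81 ± 0.22 (SD, n = 4) in null striatum, a difference of 0.08 with a 95% interval from -0.49 to 0.66. Its other probe sets differed by 0.59 and 0.23 (limma adjusted p = 0.260 and 0.362). The 2 probe sets of Myo5c, an epithelial class V motor, differed by -0.22 and -0.17 and lay below the array medians on every array.

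Of the conventional heavy chains outside striated muscle, Myh10 differed most. It encodes nonmuscle myosin IIB, the main class II heavy chain of neurons. On its brightest probe set wild type arrays gave 10.45, 10.00 and 10.44, the heterozygote 11.04, and null arrays 10.66, 10.87, 11.14 and 10.52. All null arrays were above all wild type arrays, by little in null 4, and the heterozygote was above the null mean. The difference of 0.50 had a 95% interval from 0.10 to 0.90 and did not pass (limma adjusted p = 0.183), and with array SD as a covariate it was 0.21. Myh9, nonmuscle myosin IIA, had 5 probe sets with differences from -0.12 to 0.34, of which 1420170_at (0.34) did not overlap between groups. Myh14, nonmuscle myosin IIC, differed by 0.07, and the smooth muscle heavy chain Myh11 by -0.01 and -0.18, with all 8 arrays below the array medians on both its probe sets. In all 0 of these 10 probe sets passed.

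The light chains that serve nonmuscle and smooth muscle myosins also differed little. Myl12a and Myl12b encode the regulatory light chains whose phosphorylation switches the motor on. The brightest probe set of Myl12a read 9.13, 9.32 and 9.40 in wild type, 9.84 in the heterozygote, and 9.63, 9.71, 9.56 and 9.51 in null arrays, a difference of 0.32 without overlap (limma adjusted p = 0.206) that was 0.10 after quantile normalization. Its other probe set, 1450013_at, differed by -0.18. Myl12b read 12.10 ± 0.19 (SD, n = 3) and 12.22 ± 0.13 (SD, n = 4), a difference of 0.11 that turned to -0.05 with array SD as a covariate. Myl6, the nonmuscle essential light chain, Myl9, the smooth muscle regulatory chain, and Myl6b differed by 0.12, 0.08 and -0.17. None of the 7 probe sets passed.

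No striated muscle chain passed, and most differences were negative. Over all probe sets 62.0% of differences were negative, and 75.0% of those at or below the median level. Of 12 probe sets for 8 heavy chains, 9 were lower in null arrays, with a median of -0.17, and of 9 probe sets for 6 light chains (Myl1, Myl2, Myl3, Myl4, Myl7 and Myl10) all 9 were lower, with a median of -0.24 and a range from -0.34 to -0.09. All 9 stayed negative with arrays centred on their median, after quantile normalization and with array SD as a covariate, where their median was -0.11. Myh8, the perinatal skeletal heavy chain, came closest to the threshold. It read 5.03, 4.95 and 4.93 in wild type, 4.81 in the heterozygote and 4.46, 4.16, 4.44 and 4.54 in null arrays, all of them below the array medians, and differed by -0.57 (limma adjusted p = 0.0515). Myh3, the embryonic heavy chain, and Myh1, a fast adult one, differed by -0.35 and -0.36 on their brightest probe sets, and with array SD as a covariate by -0.09 and -0.06. The single probe sets of Myh2, Myh7b and the brightest of Myh4 and Myh6, further skeletal and cardiac chains, differed by 0.10, -0.14, -0.23 and -0.20. Skeletal heavy chain genes are close in sequence, so their probe sets may share signal and single members are uncertain.

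Myh7 is the heavy chain of slow muscle and ventricle. Its single probe set read 10.12, 9.72 and 10.34 in wild type, 9.68 in the heterozygote and 9.77, 9.77, 9.31 and 9.71 in null animals. The groups overlapped, and the difference of -0.42 did not pass (limma adjusted p = 0.233). Of 11 skeletal muscle markers 0 passed in either direction and 5 lay below the median of all probe sets. Their summed level, the log2 of the sum of antilog values, ran from 9.78 to 9.91 in wild type and from 9.60 to 9.89 in null arrays. Myogenin and Myod1, the defining muscle regulators, read 6.33 ± 0.05 and 5.23 ± 0.15 (SD, n = 3) in wild type. The part of muscle RNA in these values was not tested.

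Several unconventional myosins were higher in null arrays without passing. Myo16, a motor of neurons that binds phosphatases and phosphoinositide 3-kinase signalling proteins, read 7.55, 8.12 and 7.79 in wild type, 9.08 in the heterozygote, and 8.33, 9.02, 9.59 and 8.20 in null arrays. The groups did not overlap, but the null arrays spread over more than 1 log2 unit, and the difference of 0.96 (95% interval 0.27 to 1.65) did not pass (limma adjusted p = 0.148). Myo18a, a Golgi-associated motor-like protein, read 9.73, 9.12 and 9.64 in wild type, 10.31 in the heterozygote, and 9.89, 9.97, 10.82 and 10.00 in null arrays. Null 3 stood apart there, and the difference was 0.67 (limma adjusted p = 0.182). Myo9a, a motor with a GTPase-activating domain in its tail, differed by 0.30 on its brightest probe set.

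Other unconventional myosins were lower or level. Myo10, which builds filopodia, differed by -0.37 on its brightest probe set and was lower on all 4 of its probe sets, with none passing, and the -0.37 became -0.05 with array SD as a covariate. Myo6, the motor that moves towards the pointed end of actin, differed by -0.10, -0.06 and -0.16 on its probe sets. Myo18b, a muscle protein, Myo15, a stereocilia motor of hair cells, and Myo7b, a brush border motor, differed by -0.38, -0.34 and -0.38, and with array SD as a covariate by -0.22, -0.18 and -0.04. Myo15b, Myo19, a mitochondrial motor, Myo3a and Myo7a, motors of sensory cells, and Myo9b, the other myosin of that class, differed by -0.22 to 0.27 over their probe sets, and Myo3b by -0.22. Among class I myosins, which tether membrane to actin, Myo1d differed by -0.41, and the 16 probe sets of Myo1a, Myo1c, Myo1d, Myo1e, Myo1f, Myo1g and Myo1h ran from -0.41 to 0.43 without a call. The upper end was a dim probe set of Myo1f, a myosin of leukocytes, at 3.85, 3.69 and 3.78 in wild type and 4.31, 4.37, 4.08 and 4.07 in null arrays (limma adjusted p = 0.120), while the brightest probe set of Myo1f differed by -0.14. The summed level of 7 microglia markers ran from 9.93 to 10.34 in wild type and from 10.56 to 11.00 in null arrays. None of the 7 passed, 5 differed upward, with Csf1r at 0.67 the largest, and Itgam and P2ry12 differed by -0.21 and -0.15. Their part in the Myo1f values was not tested.

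The remaining actinins differed in the same direction as Actn2 by smaller amounts. Actn1, a nonmuscle actinin of adhesions and stress fibres, was lower on 3 probe sets by 0.27 to 0.45 on the log2 scale, with adjusted p from 0.226 to 0.304 by limma, and 1452415_at did not overlap between groups. Actn4, the other nonmuscle actinin, differed by -0.06 and changed sign when arrays were centred on their median. Actn3, of fast muscle, differed by -0.13. Of the 6 actinin probe sets 1 passed, and their median was -0.31.

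No tropomyosin probe set passed. Tpm4, a short cytoskeletal tropomyosin found at growth cones and postsynaptic sites, read 9.85, 9.91 and 10.00 in wild type, 10.69 in the heterozygote, and 10.40, 10.33, 10.69 and 10.39 in null arrays. Wild type arrays lay close together and below every null array, and the heterozygote was level with the highest null array. The difference of 0.53 (95% interval 0.25 to 0.82) did not pass over all probe sets (limma adjusted p = 0.0665). Tpm3, a tropomyosin with many neuronal isoforms, read 11.51 ± 0.25 (SD, n = 3) and 11.78 ± 0.16 (SD, n = 4) on its brightest probe set, a difference of 0.27. Tpm2, of muscle, differed by -0.33 on its brightest probe set, or -0.04 with array SD as a covariate, and its 4 probe sets were all lower. Tpm1 had 2 probe sets higher, by 0.34 and 0.31, and 2 lower, by 0.19 and 0.25 on the log2 scale. Probe sets of a tropomyosin gene can read different spliced ends, and the labels do not say which isoforms these read. Of the 14 tropomyosin probe sets 7 differed upward and 7 downward, with a median of 0.05.

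There was no overlap between the groups on 22 member probe sets, 9 of them higher in null and 13 lower. These are 8.33% and 12% of the members, against 7.70% and 8.85% of all probe sets. On the 9 higher ones the heterozygote was nearer the null than the wild type mean in 8 and past the null mean in 7. On the 13 lower ones it was nearer the null mean in 6, past it in 3, and below every wild type array in 7. It was above every wild type array on Actn2, Myo3b and Myo5b 1437698_at. With array SD as a covariate 6 of the 9 differences were smaller, 3 of them by at least a factor of 2, and with the heterozygote among the controls 8 of the 9 were smaller. On the lower side 9 of the 13 were smaller in size with array SD as a covariate, 1 of them by at least a factor of 2, and 8 of the 13 with the heterozygote among the controls. The part of array spread in these differences was not tested further. The SAM score beyond 2 in either direction, the limit the study names, took in 9 member probe sets as higher and 17 as lower, 8.33% and 15.7%, where 10.3% and 12.7% of all probe sets passed it.

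**Figure D3:**
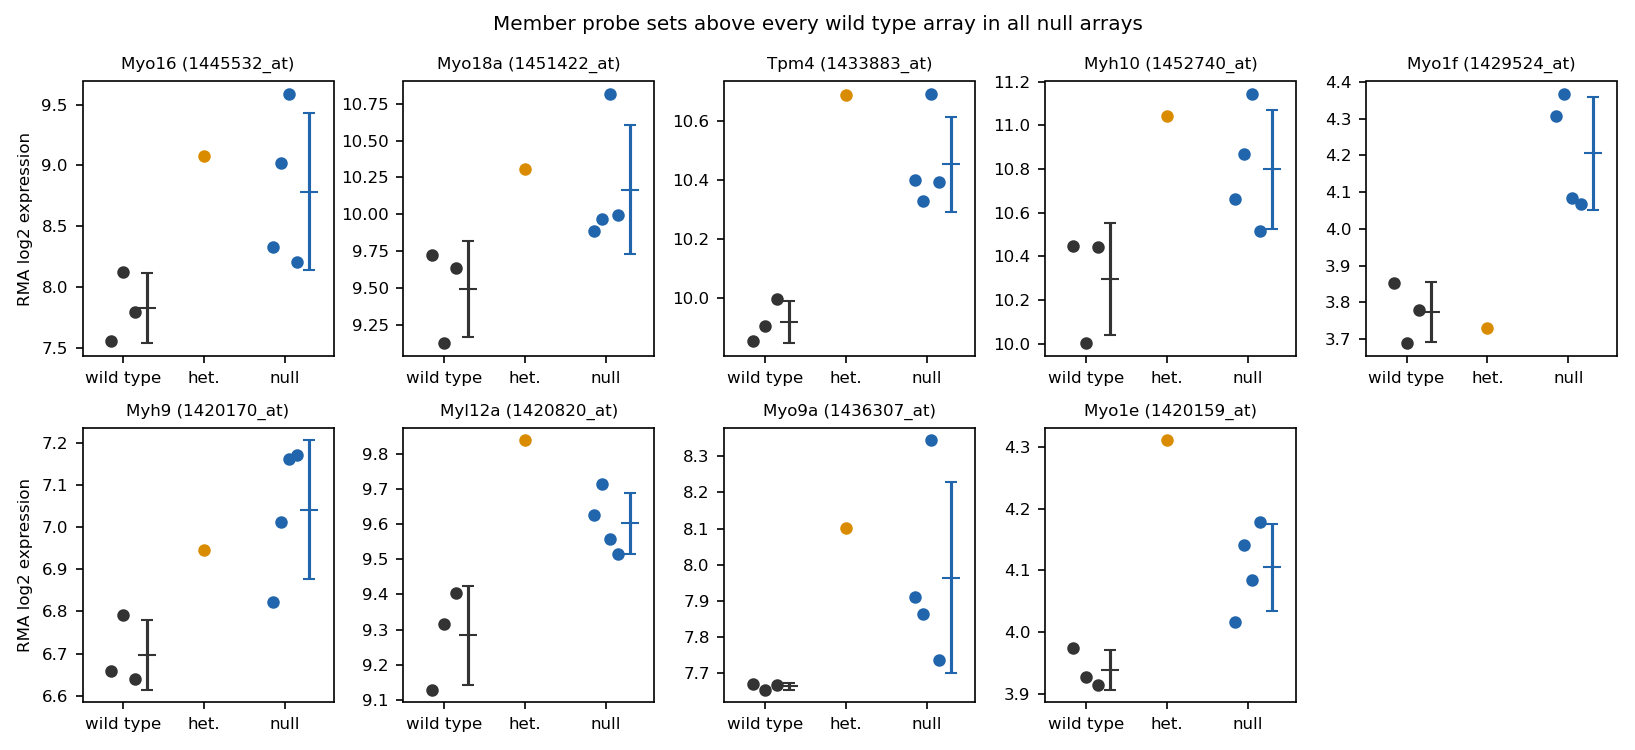
RMA log2 expression (vertical axis, scaled separately in each panel) of the 9 member probe sets on which every null array was above every wild type array. The heterozygote (het.) is drawn in the middle column, and group means and SDs stand beside the points. None passed an adjusted p of 0.05, and the heterozygote lies past the null mean on 7 of them, among them Myo16, Tpm4 and Myh10.

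The partners of these proteins were read from lists of 141 genes in 7 groups, with each gene taken at its brightest probe set. Of 130 measured genes 3 rose and 1 fell, 2.31% and 0.769%, where 2.38% and 0.676% of all genes were called higher and lower. Among 23 measured kinases, phosphatase subunits and small GTPases that set myosin light chain phosphorylation, 1 rose. This was Rhob, a GTPase of endosomes, from 9.24 ± 0.21 (SD, n = 3) to 10.30 ± 0.33 (SD, n = 4), or 2.09-fold (limma adjusted p = 0.0224). Of 22 thin filament partners of tropomyosin, 1 fell, Cnn2, a nonmuscle calponin, from 8.42 ± 0.18 (SD, n = 3) to 7.38 ± 0.27 (SD, n = 4), or 2.05-fold (limma adjusted p = 0.0152). Its heterozygote value of 9.09 was above every other array.

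Of 20 actinin partners Zyx, the adhesion protein zyxin, rose 1.53-fold (limma adjusted p = 0.0459). Of 25 spine and cortical actin regulators Ssh1, a phosphatase that activates cofilin, rose 1.90-fold (limma adjusted p = 0.0416). No member passed among 6 actins, 25 cargo adaptors of unconventional myosins and 9 myosin chaperones and binding proteins. Their largest differences were -0.30 for Actg2, smooth muscle gamma actin, 0.75 for Rab10, a GTPase of exocytic vesicles (limma adjusted p = 0.124), and -0.39 for Mybpc2, a fast muscle myosin-binding protein. The counts over the lists changed when single arrays were left out, and the cause was not tested. The count of genes that rose was 0 without wild type 2, wild type 3, null 1 or null 2, 1 without null 3, 5 without wild type 1 and 7 without null 4, and the count of genes that fell was 0 without wild type 2, wild type 3, null 1 or null 2 and 3 without wild type 1.

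Markers of cells the punch could hold were read beside the members. Of 8 measured medium spiny neuron markers 3 fell, the dopamine receptor gene Drd1 1.91-fold, Pde10a 2.06-fold and Ppp1r1b, the phosphoprotein DARPP-32, 2.46-fold. The other 5 did not pass. Penk and Tac1 differed by 0.21 and 0.14, and Foxp1, Drd2 and Rgs9 by -0.22, -0.21 and -0.28. The median over the 8 was -0.25. Their summed level ran from 13.53 to 13.64 in wild type and from 13.24 to 13.55 in null arrays. It was 14.07 in the heterozygote, where Penk read 11.73 and Tac1 12.40, each the highest of all arrays. Whether the falls of Nexn, Myo5b and Actn2 move with the number of these neurons was not tested. Mural and smooth muscle cells express several members, and 0 of their 11 markers passed, with summed levels from 10.84 to 11.01 in wild type and from 11.00 to 11.30 in null arrays. Endothelial markers ran from 10.20 to 10.53 and from 10.40 to 10.95, with 0 of 9 passing. The choroid plexus marker Ttr ranged from 7.11 to 13.44 over the arrays and was highest in wild type 1 and null 2. Without this pair Nexn differed by -2.94 (limma adjusted p = 0.0146) and Myo5b by -1.88 (limma adjusted p = 0.0201). Actn2 differed by -0.77 and did not pass (limma adjusted p = 0.0953). Ttr still ranged from 7.11 in null 1 to 11.44 in wild type 3 over the arrays left in this fit.

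Among the other marker lists, 1 of 8 genes of astrocytes and radial glia rose, Slc1a2, a glutamate transporter (1.72-fold, limma adjusted p = 0.0478). Of 7 choroid plexus, 7 ependymal, 4 erythroid, 6 oligodendrocyte lineage, 6 cortical projection neuron and 7 meningeal markers 0 passed. The largest differences in these lists were -1.39 for Ttr, -0.27 for Tmem212, -0.29 for Hbb-bh1, 0.31 for Mbp, -0.28 for Emx1 and -0.49 for Lum.

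The differences of Nexn and Myo5b were past the threshold in each of the 18 alternative fits that gave an adjusted p. These 18 are not all separate checks. The heterozygote as a group of its own is a single array, so that fit returned the reported values. The replicate block gave the same differences as leaving out null 4 (Nexn -3.23, Myo5b -1.93). Myo5b and Actn2 entered the fit of bright probe sets by their mean over the 7 arrays, with null means below the cut of 6.30. Nexn ranged from -3.48 to -2.94 and Myo5b from -2.52 to -1.73. Actn2 ranged from -1.01 to -0.77 and passed in 13 of the 18. Tpm4 passed in 1, with array weights (0.46, limma adjusted p = 0.0332), and ranged from 0.32 to 0.59, and Myo16 passed in 1 and ranged from 0.62 to 1.16. Myh8 was tested in 17 of these fits and passed in 4, with a trend and robust prior (0.0347), with array weights (0.0241), without null 4 (0.0373) and adjusted over genes (0.0448), and its difference ranged from -0.62 to -0.46.

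**Figure D4:**
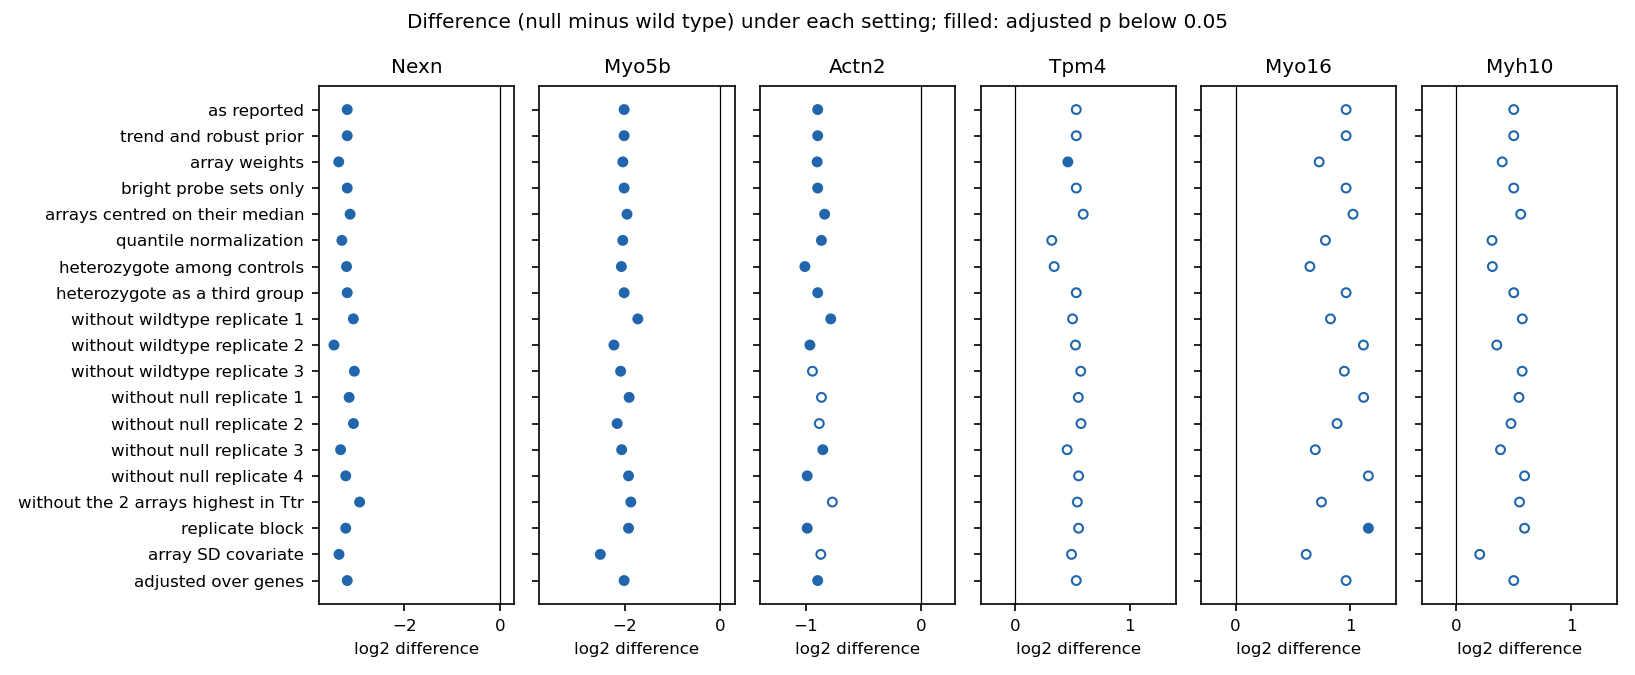
Log2 difference between null and wild type (horizontal axis, scaled per panel) of Nexn, Myo5b, Actn2, Tpm4, Myo16 and Myh10 as reported and under each of 18 alternative fits (vertical axis), with filled points where the adjusted p is below 0.05. Nexn and Myo5b are filled throughout, Actn2 is open in 5 fits, and the other genes are open in all but at most 1. The fit with the heterozygote as a group of its own repeats the reported values.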

How the data were processed

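Per the series' design text, the authors made the values with RMA in Bioconductor, which corrects background, normalizes by quantiles and summarises probes per probe set, and deposited them as log2 expression. No source used here gives the RMA version, the set of arrays normalized at once or a filter. The values were used unfiltered. Genes were named from the array's annotation: 34945 probe sets carry 1 symbol, 932 several and 9160 none, and 4 with several symbols that include a member were not used. All 57 symbols were found in the RefSeq gene table (GRCm38.p6). Promoter windows come from RefSeq starts of the same build.

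Null and wild type arrays, 1 per animal, were compared with limma 3.58.1 in R 4.3.3 (lmFit, eBayes), 7 arrays, no covariate, Benjamini-Hochberg adjustment over all 45037 probe sets and a threshold of 0.05. The script was tested on simulated data. The number of arrays limits precision. A gene's brightest probe set has the highest mean over the 7 arrays. The genes named are members with a call, then members by absolute difference up to 24, the brightest of each family, and up to 4 called genes or the largest difference of each list. Other members are named to account for the whole family. Members and lists were chosen with earlier results of these data known. Alternatives to the test, normalization, samples and covariates are given below. Figures were drawn with matplotlib 3.10.9.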

Additional observations from a re-analysis of the deposited data

Results flagged for a closer look

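Null groups of 4 arrays were screened for a single array apart from the rest on 26 member probe sets, and chance flags about 1 in 20 such groups. Myh7 read 9.31 in null 3 where the other null arrays lay between 9.71 and 9.77. Myo18a read 10.82 in null 3 where the others lay between 9.89 and 10.00. Myo3b, an actin-bundle motor of photoreceptors and hair cells, read 6.63 in the heterozygote, which is not part of the reported comparison, and between 5.20 and 5.66 on the 7 other arrays.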

How the results depend on the processing

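Of 489 values of 26 named probe sets under 19 alternatives, 464 kept their direction and side of the threshold, 5 lost a call (all Actn2), 17 gained one and 3 changed sign. The 19 include the fit with the heterozygote as a group of its own, which could only return the reported values. The reversals were Actn4 (0.0039 with arrays centred on their median, 0.0043 without wild type 3, where leaving out other single arrays gave values down to -0.0919) and Myl12b (-0.048 with array SD as covariate). Member counts as reported were 0 higher and 3 lower. They were 2 and 5 with array weights. By SAM score they were 9 and 17, where 10.3% and 12.7% of all probe sets passed as higher and lower. Leaving out single arrays gave 0 higher and 2 to 4 lower, the fourth being Myh8 without null 4 (adjusted p = 0.0373). Pathway genes that rose numbered 3 as reported, 11 with array weights, 1 with centred arrays, 0 with the heterozygote among controls, without wild type 1 and null 2, which are highest in Ttr, or with array SD as covariate, 23 by SAM score, and 0 to 7 with single arrays left out. Those that fell numbered 1 as reported, 2 with an intensity trend and robust prior or adjusted over genes, 5 with array weights, 0 without the Ttr pair or with array SD as covariate, 17 by SAM score, and 0 to 3 with single arrays left out. Bcl11b probe sets called numbered 4 as reported, 1 without the Ttr pair, 1 to 4 with single arrays left out, and 1 adjusted over genes, where only 1 was tested. Beyond the SAM share of all probe sets, no share of all probe sets or genes called is given for the alternatives. The cause of these changes was not tested. With the replicate number as a block, 1 member (Myo16, adjusted p = 0.0208) and 7 pathway genes were higher, and 3 members and 2 pathway genes lower. Null 4 is alone in its block, so it adds nothing to the differences of this fit. Same-numbered arrays did not deviate together (correlations of -0.25, -0.31 and -0.17), and 0 of these 6 arrays correlated best with their own number. These values thus showed no pairing by number. Whether same-numbered arrays shared a litter or batch was not tested.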

Other observations

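Dim member probe sets tended to be lower in null arrays, and so did dim probe sets in general. Of 56 member probe sets at or below the median level of all probe sets, 44 (78.6%) had a negative difference, with a median of -0.16, beside 75.0% and -0.13 over all 22519 dim probe sets. Of the 52 brighter ones 31 (59.6%) were negative, with a median of -0.12, beside 48.9% and 0.01 over all 22518. The called members, Nexn, Myo5b and Actn2, were all among the brighter ones by their mean over the 7 arrays. The null means of Myo5b and Actn2 nevertheless lay below the median level of all probe sets. With array SD as a covariate the median was -0.03 over the members and -0.01 over all probe sets.

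Probe sets of 1 gene did not always point the same way. Of 27 member genes with more than 1 probe set, 17 had a single sign over all of them and 10, Tpm1 among them, had both.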
